A study of Mus musculus with 12 samples.

Results

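The Dppa genes (developmental pluripotency associated) are a set named for their expression in pluripotent cells and not for a shared sequence. The 4 members described here are Dppa2, Dppa3, Dppa4 and Dppa5a. They were taken as every probe that is not a control and whose gene name in the scanner output is one of these symbols, which gave 7 of 55681 probes and 4 of 24038 named genes. Dppa2 has 2 probes, Dppa3 has 1, Dppa4 has 3 and Dppa5a has 1. The members were chosen by measured values, since Dppa3 had been seen to move against the markers of naive pluripotency. The rule of choice names no cell type. Because it may have used the embryonic stem cell values, those are given for the members as a description without a test. The p-value of Dppa3 in induced pluripotent stem cells is not known to be free of this choice.

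RNA was measured on 12 single-colour Agilent arrays of mouse cells, 1 array per sample. Mouse embryonic stem cells (mESC), which are lines from the inner cell mass of the blastocyst, were labelled Tbx3-low (4 arrays) or Tbx3-high (4 arrays). Mouse induced pluripotent stem cells (iPSC), which are somatic cells reprogrammed to pluripotency, were labelled Tbx3 null (2 arrays) or Tbx3 wildtype (2 arrays). Tbx3 is a T-box gene whose protein acts in the pluripotency circuitry, which the title of the series names as its subject. The labels used here do not give the strain or line, the culture medium, any feeder layer, the number of clones, the way in which mESC with much or little Tbx3 were sorted, or the deleted part of the null allele. Nothing in the labels says that the arrays of a group stand for separate cultures, so the p-values below measure only the spread between these arrays.

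Dppa3, also called Stella or PGC7, is a small protein of primordial germ cells, oocytes and the early embryo. It protects methylated cytosines of the maternal genome from conversion after fertilisation and binds Uhrf1, the factor that brings the maintenance methyltransferase Dnmt1 to replicated DNA. Cultures of mESC are known to be mixtures of Dppa3-positive and Dppa3-negative cells. Dppa2 and Dppa4 are SAP-domain DNA-binding proteins that act as partners on chromatin and are needed for genes of the 2-cell-stage programme and for some germline genes. Dppa5a, also called Esg1, is a KH-domain protein, a fold that binds RNA, and is abundant in mESC.

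Each value rests on the 60-base probe that reports it, so the probes are shown first. Coordinates are mm9, as the scanner output gives them, and the sequences are read 5′ to 3′ on the strand of the transcript. Whether each lies in a coding exon or a UTR was not read, since no mm9 annotation was used here. Probes that could lie in a UTR are shown by a stretch of 30 bases and the other ones whole. Capitals mark AATAAA, the hexamer best known as a polyadenylation signal.

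The single Dppa3 probe, chr6:122580207-122580266 on the plus strand, is shown from base 2 to base 31 because every Dppa3 value comes from it.
Dppa3 A_55_P2091496: ccagggctgaggAATAAAgtaaatagaatt

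The Dppa2 probes lie at chr16:48319381-48319440 (A_66_P136844, bases 1 to 30 shown) and at chr16:48317579-48318787 (A_55_P2059730, whole), both on the plus strand. They are shown because they gave different results. The second covers 1209 genomic bases with its 60 bases, so it crosses at least 1 exon junction.
Dppa2 A_66_P136844: accacttagccagtactgatgtatgtttga
Dppa2 A_55_P2059730: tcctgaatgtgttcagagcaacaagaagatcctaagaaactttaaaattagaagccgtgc

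The Dppa4 probes lie at chr16:48293216-48293867 (A_66_P101192, spanning 652 genomic bases, bases 1 to 30 shown), chr16:48291368-48291427 (A_55_P2065549, whole) and chr16:48294346-48294405 (A_55_P2158607, bases 1 to 30 shown), all on the plus strand. They are shown to set 3 readings of 1 transcript side by side.
Dppa4 A_66_P101192: ataagaacaagatcttgactaagagcctcg
Dppa4 A_55_P2065549: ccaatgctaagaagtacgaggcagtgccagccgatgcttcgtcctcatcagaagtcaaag
Dppa4 A_55_P2158607: atctggcttgtggcttttgtttttgttatc

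The Dppa5a probe lies at chr9:78214866-78214925 on the minus strand and is shown from base 31 to base 60.
Dppa5a A_55_P2028171: ccactctaAATAAAaAATAAAattgaagtg

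The hexamer AATAAA or its reverse complement TTTATT was present in 2 of the 7 member probes, those of Dppa3 and Dppa5a, and in 13.5% of all 55681 probes. A match is a description of the letters only. RefSeq lists the pseudogenes Dppa5b and Dppa5c on chromosome 9 and Dppa3-ps on the X chromosome, and the array has no probe of these names, so signal that they might add to the Dppa5a and Dppa3 probes cannot be told apart from that of the genes.

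All 7 member probes were well above background on all 12 arrays and none of their spots was saturated, so each was measured on both sides of each comparison. By contrast, the 2 probes named Dppa1, which is no member, were well above background in 1 of 24 readings. Levels below are log2 of the processed signal relative to the 75th percentile of the same array, so 0 is a signal equal to that percentile. Signals of different probes also depend on the probe, so the levels are not compared between genes. The mESC and iPSC arrays lay on separate slides, so cell type and slide cannot be told apart and levels are compared only within a cell type. That percentile was 312 to 457 signal units for mESC and 696 to 997 for iPSC. Of the spots, 55.9% to 64.8% were well above background for mESC, 62.4% and 63.0% for null-labelled and 68.0% and 68.6% for wild-type iPSC.

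All 10 core pluripotency markers, among them Pou5f1 and Sox2, were well above background on every array. Their summed signal, in multiples of the array's 75th percentile, was 257 to 270 in the Tbx3-low, 250 to 276 in the Tbx3-high, 375 to 391 in the null-labelled and 271 to 273 in the wild-type arrays. Bright markers weigh most in this sum. The brightest on the null-labelled arrays, Dnmt3b and Trim28, had mean log2 levels of 6.66 and 6.52 there, and of 5.53 and 6.09 on the wild-type arrays. Pou5f1 and Sox2 did not pass in iPSC (limma, adjusted p = 0.187 and 0.317). Of these 10 genes 5 rose and 0 fell in null-labelled iPSC (2 rose with the deposited series table), and 2 rose and 2 fell in Tbx3-high mESC. The part of these marker differences in the Dppa values was not tested. The Tbx3 probe rose by 1.33 ± 0.08 (SE) on the log2 scale in Tbx3-high over Tbx3-low mESC, a 2.52-fold difference (limma, adjusted p = 7.36e-07, n = 4 and 4). In the iPSC the same probe was 5.52 and 5.49 on the null-labelled arrays and 5.01 and 5.37 on the wild-type arrays, a log2 difference of 0.32 ± 0.11 that did not pass the threshold (limma, adjusted p = 0.0546, n = 2 and 2). It passed under 4 of 13 alternative settings, with adjusted p between 0.00523 and 0.484, and was not lower in the null in any of them. Which part of the transcript the null allele lacks relative to this probe is not known here, so the arrays are called null-labelled below.

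In mESC, Dppa3 was high on each Tbx3-low array and low on each Tbx3-high array. Its log2 levels were 2.84, 2.66, 2.89 and 2.84 on the 4 Tbx3-low arrays and -0.45, -0.49, -0.19 and -0.47 on the 4 Tbx3-high arrays. The groups did not overlap, and a gap of 2.85 log2 units separated the lowest Tbx3-low array from the highest Tbx3-high array. The difference of the means, high minus low, was -3.21 ± 0.09 (SE, n = 4 and 4), a 9.25-fold lower level in Tbx3-high cells. Of 30693 probes measured in this comparison 26 fell further, and 0.104% of probes were at least 3 log2 units lower and 2.15% at least 1 log2 unit lower. Within the first row of the slide the difference was -3.22 and within the second row -3.20. On the slide, columns 1 and 2 held Tbx3-low and columns 3 and 4 held Tbx3-high cells, and the 2 factors cannot be told apart. In a bulk sample, fewer Dppa3-positive cells and less Dppa3 RNA per cell cannot be told apart either.

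In iPSC, Dppa3 rose in the null-labelled cells. Its log2 levels were 3.35 and 3.21 on the null-labelled arrays and -0.12 and -0.08 on the wild-type arrays. Both null-labelled arrays were high, both wild-type arrays were low, and the gap between them was 3.29. On the iPSC slide columns 1 and 2 held wild-type and columns 3 and 4 null-labelled cells, so here too column and group cannot be told apart. The difference, null minus wild type, was 3.37 ± 0.12 (SE, 95% interval 3.101 to 3.647, n = 2 and 2), a 10.4-fold rise (limma, adjusted p = 4.42e-08). It ranked 63rd among the rises of 36713 probes, of which 28.1% passed the threshold in either direction, 3.69% rose by at least 1 log2 unit and 0.272% by at least 3. The rise passed the threshold under all 13 alternative settings, where it was 3.18 to 3.44. Dppa3 was chosen by measured values, and neither this p-value nor the alternatives are known to be free of that choice.

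**Figure D1:**
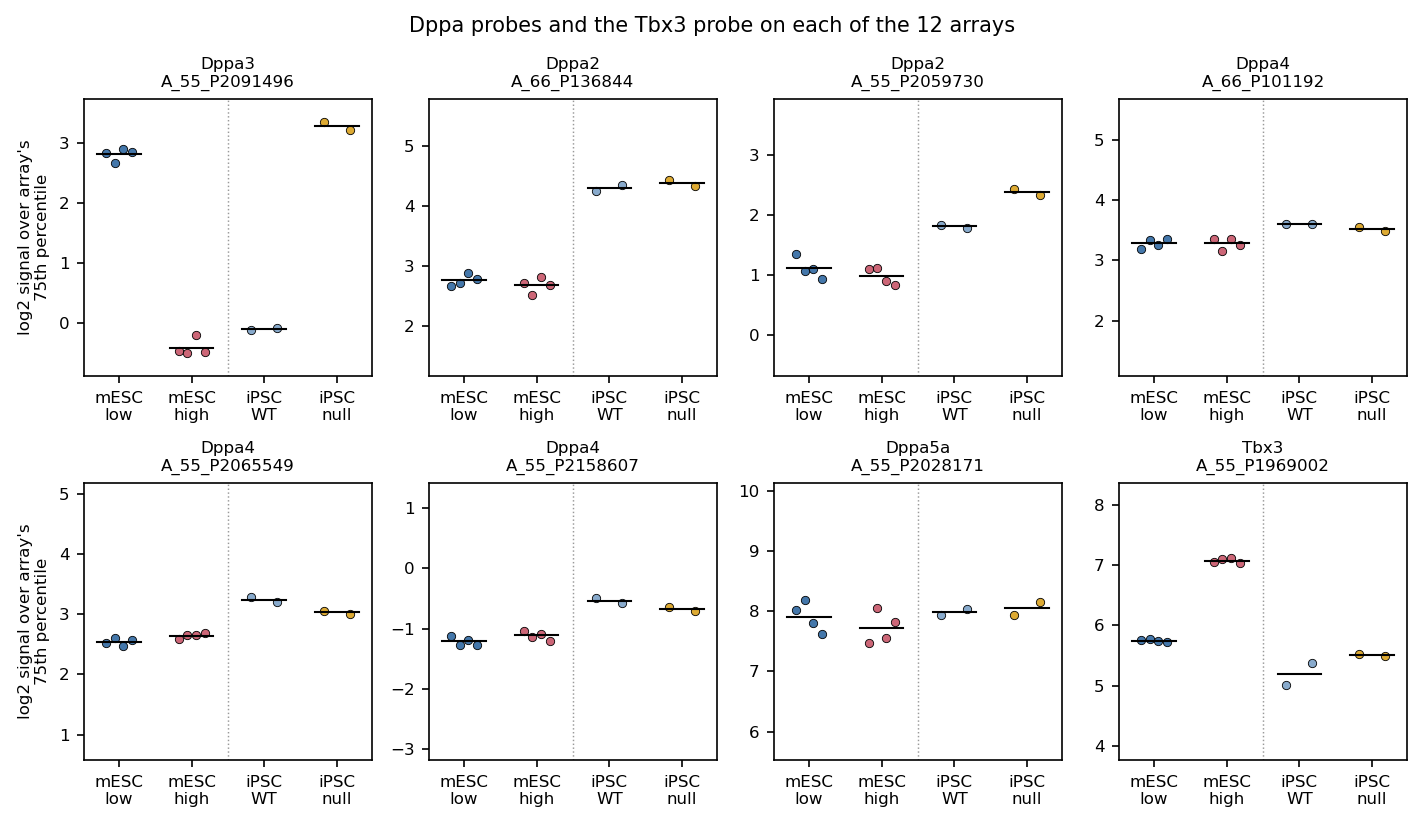
Log2 signal over the array's 75th percentile (vertical axes, each spanning the same 4.6 log2 units) of the 7 Dppa probes and the Tbx3 probe on each array (points), with group means (lines), for Tbx3-low and Tbx3-high mESC and for wild-type (WT) and null-labelled iPSC. Dppa3 sits between 2.66 and 2.89 in Tbx3-low and between -0.49 and -0.19 in Tbx3-high mESC, and at 3.35 and 3.21 in null-labelled against -0.12 and -0.08 in wild-type iPSC. The group means of the other Dppa probes differ by at most 0.18 in mESC and 0.56 in iPSC, the latter for Dppa2 probe A_55_P2059730.

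Dppa2 gave a rise in the null-labelled iPSC by 1 of its 2 probes. The junction-crossing probe A_55_P2059730 had log2 levels of 2.42 and 2.33 on the null-labelled arrays and 1.84 and 1.79 on the wild-type arrays. These did not overlap, and the difference was 0.56 ± 0.14 (SE, 95% interval 0.24 to 0.88), a 1.48-fold rise (limma, adjusted p = 0.0148). This call was lost under 5 of 12 alternative settings, in which the difference stayed positive, with adjusted p between 0.0131 and 0.0849 over all 12. It was lost without the first null-labelled array (0.52, adjusted p = 0.0849), without the first wild-type array (0.59, adjusted p = 0.0578) and without the second wild-type array (0.54, adjusted p = 0.0701). The other probe, A_66_P136844, read 4.44 and 4.34 on the null-labelled arrays and 4.25 and 4.35 on the wild-type arrays. Here the groups overlapped, and the difference of 0.09 ± 0.11 (SE, 95% interval -0.17 to 0.34) did not pass (limma, adjusted p = 0.647). The probes of this gene thus disagreed on whether it rose. Their 95% intervals overlapped between 0.24 and 0.34, but both probes were read on the same arrays, so that overlap does not compare them. A_66_P136844 exceeded the junction-crossing probe by 2.009 to 2.013 on the null-labelled arrays and by 2.41 to 2.57 on the wild-type arrays. The cause of this disagreement was not tested.

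In mESC both Dppa2 probes overlapped between the groups. A_66_P136844 read 2.67, 2.72, 2.88 and 2.79 on the Tbx3-low arrays and 2.72, 2.51, 2.81 and 2.69 on the Tbx3-high arrays, a difference of -0.08 ± 0.08 (SE, 95% interval -0.26 to 0.09). The junction-crossing probe read 1.35, 1.06, 1.11 and 0.94 on the Tbx3-low arrays and 1.10, 1.12, 0.91 and 0.83 on the Tbx3-high arrays, a difference of -0.13 ± 0.10 (SE, 95% interval -0.35 to 0.09). In neither probe did the groups separate.

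Dppa4, the partner of Dppa2, did not pass the test with any of its 3 probes. The probe A_66_P101192, read 3.55 and 3.49 on the null-labelled and 3.61 and 3.61 on the wild-type arrays, a difference of -0.09 ± 0.10 (SE, 95% interval -0.31 to 0.13; limma, adjusted p = 0.572). The probe A_55_P2065549 read 3.05 and 3.01 against 3.28 and 3.20, a difference of -0.21 ± 0.08 (SE, 95% interval -0.39 to -0.03; limma, adjusted p = 0.0792). The probe A_55_P2158607 read -0.64 and -0.71 against -0.49 and -0.58, a difference of -0.14 ± 0.09 (SE, 95% interval -0.34 to 0.07; limma, adjusted p = 0.333). All 3 differences were negative and none of the 3 pairs of groups overlapped, which was also true of 66.1% of all probes tested. Under 2 alternative scalings A_55_P2065549 did pass, at -0.33 (adjusted p = 0.0160) with quantile normalization and at -0.31 (adjusted p = 0.0194) with the percentile taken over probes detected on all arrays.

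In mESC the Dppa4 groups overlapped for each probe. A_66_P101192 read 3.19, 3.35, 3.25 and 3.36 on the Tbx3-low arrays and 3.35, 3.15, 3.36 and 3.26 on the Tbx3-high arrays, and the means differed by less than 0.01. The difference was 0.10 ± 0.06 for A_55_P2065549, whose levels were 2.48 to 2.61 in Tbx3-low and 2.59 to 2.68 in Tbx3-high cells. It was 0.10 ± 0.07 for A_55_P2158607, at -1.27 to -1.11 and -1.20 to -1.03.

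Dppa5a, the KH-domain protein gene, showed no separation of the groups in either comparison. On the mESC arrays its log2 levels were 8.03, 8.19, 7.80 and 7.62 in Tbx3-low and 7.47, 8.05, 7.56 and 7.82 in Tbx3-high cells, a difference of -0.18 ± 0.15 (SE, 95% interval -0.51 to 0.15). On the iPSC arrays they were 7.94 and 8.16 in null-labelled and 7.94 and 8.04 in wild-type cells, a difference of 0.06 ± 0.22 (SE, 95% interval -0.43 to 0.54; limma, adjusted p = 0.891). The SD between arrays of this probe was 0.25 and 0.26 in the mESC groups and 0.15 and 0.07 in the iPSC groups. Both comparisons share their estimate of the spread, so the iPSC interval also draws on the mESC arrays. A difference within these intervals is not excluded, but the intervals are not limits of detection.

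Counted over the family in iPSC, 2 of 7 probes rose, 0 fell and 5 did not pass, where 15% of all probes tested rose and 13.1% fell. The rises include that of Dppa3, which was chosen by measured values. For 5 of the 7 probes the null-labelled and wild-type arrays did not overlap, a share near the 66.1% of all probes. The median difference of the 7 probes was 0.06, and that of all probes tested was 0.04. In mESC the arrays of 1 of 7 probes, that of Dppa3, did not overlap, against 29.5% of all probes. The median difference there was -0.08, and that of all probes was 0.05. Apart from Dppa3, the member probes differed by at most 0.18 log2 units in mESC and 0.56 in iPSC.

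**Figure D2:**
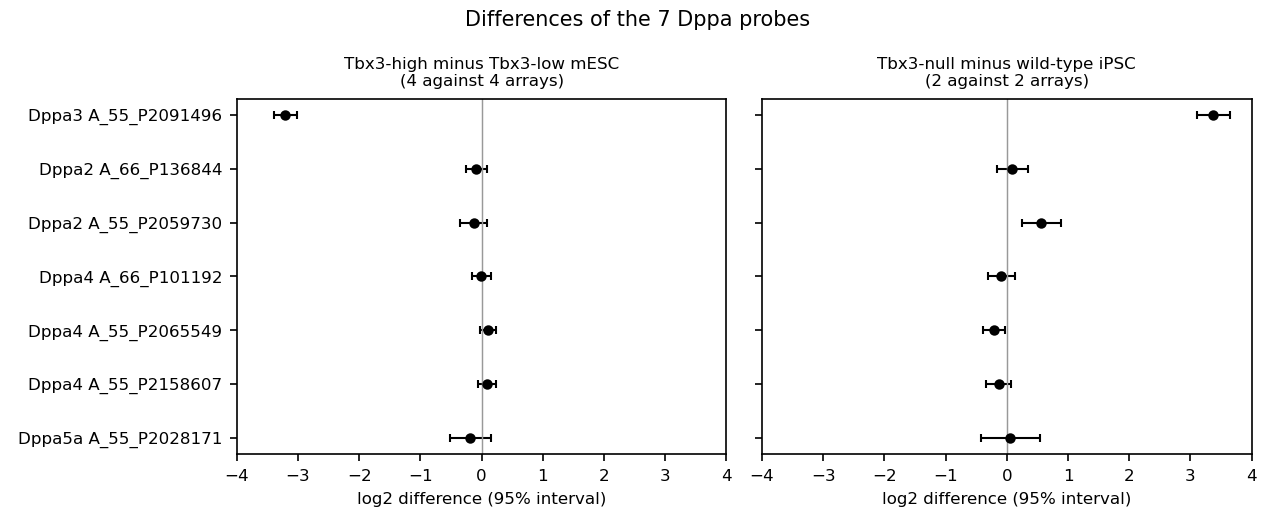
Log2 difference (horizontal axis) of each of the 7 Dppa probes with its 95% interval from the fit, for Tbx3-high minus Tbx3-low mESC (left, 4 against 4 arrays) and null-labelled minus wild-type iPSC (right, 2 against 2 arrays). Dppa3 lies at -3.21 on the left and 3.37 on the right, and the other 6 probes lie between -0.18 and 0.10 on the left and between -0.21 and 0.56 on the right.

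Beside the naive pluripotency markers, Dppa3 stood on the other side in mESC. Of 21 such markers, with the Dppa genes and Tbx3 left out, 19 had a higher mean in Tbx3-high cells. The other 2, Fgf4 and Prdm14, had a lower one. By the test 14 rose, 2 fell and 5 did not pass. The median was 0.46 and the range -0.34 to 1.65, while Dppa3 differed by -3.21. Dppa3 was chosen for moving against such markers, by a rule that names no cell type. In iPSC the same list was mixed, with 10 positive and 11 negative differences. Of the 21 genes 3 rose (Fbxo15, Klf2 and Fgf4, named after their values were seen), 5 fell and 13 did not pass, with a median of -0.11. The largest falls that passed were those of Spp1, an extracellular phosphoprotein, at -0.87 ± 0.12, Klf5, a Krüppel-like factor of self-renewal, at -0.86 ± 0.11, and Nr5a2, a nuclear receptor that binds the Pou5f1 locus, at -0.66 ± 0.11. With quantile normalization, and with the deposited series table, 0 of the 21 rose and 9 fell. Dppa3 rose by 3.37 and no gene of the list differed by more than 0.87 in either direction in iPSC.

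**Figure D3:**
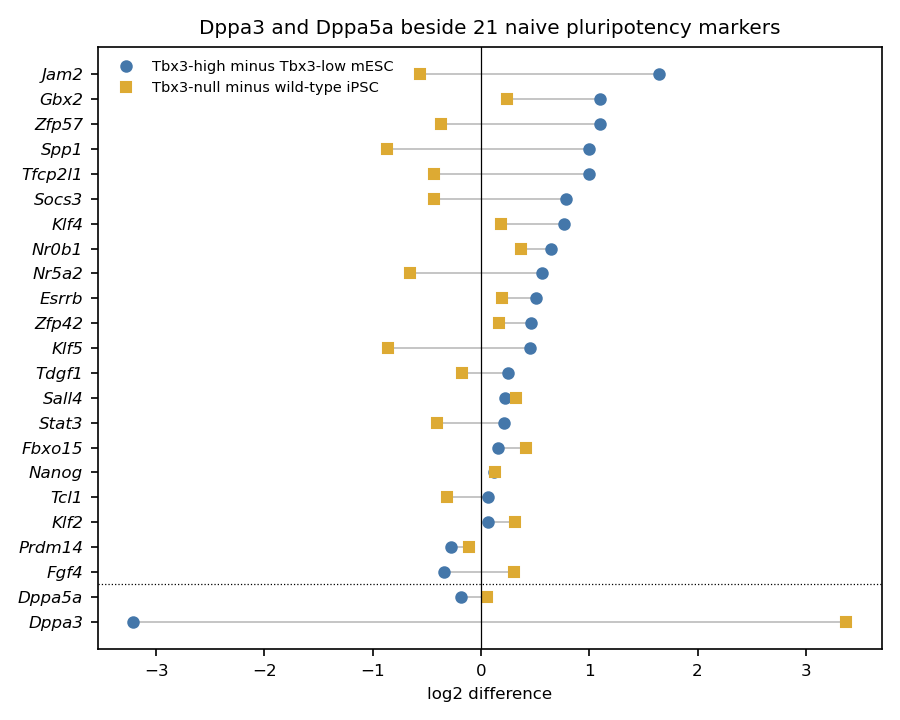
Log2 difference (horizontal axis) of Dppa3, Dppa5a and 21 naive pluripotency markers in Tbx3-high minus Tbx3-low mESC (circles) and in null-labelled minus wild-type iPSC (squares). In mESC 19 of the 21 markers lie to the right of 0 and Dppa3 lies at -3.21, and in iPSC the markers lie between -0.87 and 0.41 and Dppa3 at 3.37.

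Dppa3 lies on chromosome 6 between Gdf3, a ligand of the TGF-beta family, and Nanog, the homeodomain factor of naive cells, and neither of these direct neighbours passed the test. In iPSC Gdf3 differed by 0.04 ± 0.11 (limma, adjusted p = 0.823) and Nanog by 0.13 ± 0.09 (limma, adjusted p = 0.326), and both signs turned under some scalings. In mESC they differed by 0.07 ± 0.08 and 0.12 ± 0.06. Rimklb, a glutamate ligase gene that lies 5 genes from Dppa3, moved in the same directions as Dppa3 with smaller sizes. It rose by 1.03 ± 0.14 in null-labelled iPSC (limma, adjusted p = 0.00042) and fell by 0.36 ± 0.10 in Tbx3-high mESC (limma, adjusted p = 0.0188). Of the 9 genes on each side in RefSeq order, a window chosen after the values were seen, 11 were measured in iPSC, of which 4 rose, 2 fell and 5 did not pass. The other rises were those of Phc1, a Polycomb subunit, at 0.52 ± 0.15, of Slc2a3, a glucose transporter, at 0.49 ± 0.11 and of Necap1, an endocytosis protein, at 0.29 ± 0.09. The cytidine deaminase Apobec1 fell by 0.40 ± 0.13 and the lectin receptor gene Clec4a1 by 1.02 ± 0.23. The calls of Slc2a3, Necap1 and Apobec1 were lost under 2, 3 and 1 of 5 alternative settings. In mESC 12 of the neighbours were measured, of which 1 rose (Slc2a3, 0.42), 3 fell (M6pr, -0.46, Rimklb, and Mfap5, -0.65) and 8 did not pass. Foxj2 and Mfap5 differed by 0.43 and 0.10 in iPSC, and Clec4a2 and Clec4n, which lie outside the window, by -0.24 and 0.64, and none of these 4 passed.

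**Figure D4:**
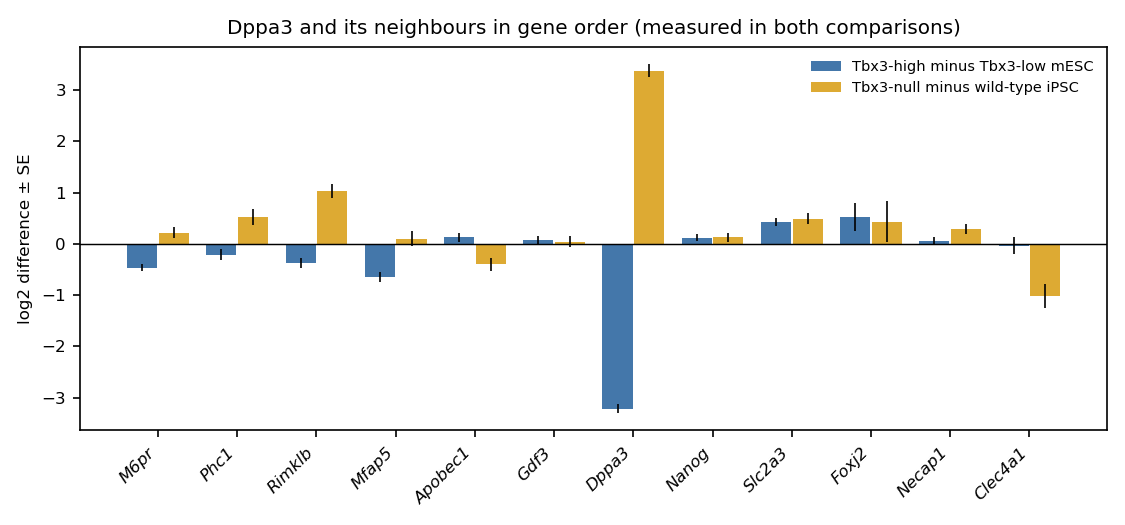
Log2 difference ± SE (vertical axis) of Dppa3 and of the neighbouring genes measured in both comparisons, in their order along chromosome 6, for Tbx3-high minus Tbx3-low mESC (blue) and null-labelled minus wild-type iPSC (yellow). Dppa3 reaches -3.21 and 3.37, and its direct neighbours Gdf3 and Nanog lie between 0.04 and 0.13 in both comparisons.

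Dppa4 and Dppa2 are next to each other on chromosome 16, followed by Morc1, a chromatin ATPase of the male germline. Morc1 fell by 0.38 ± 0.11 in null-labelled iPSC (limma, adjusted p = 0.0260), where the Dppa2 probes differed by 0.09 and 0.56 and the Dppa4 probes by -0.21 to -0.09. In mESC Morc1 rose by 0.52 ± 0.08. Of the genes within 9 places of Dppa4, 9 were measured in iPSC, of which 2 rose, 3 fell and 4 did not pass. Tagln3, a calponin-family gene, rose by 1.16 ± 0.11 and the hydrolase gene Abhd10 by 0.37 ± 0.11. Phldb2, a gene of cell adhesion, fell by 1.07 ± 0.18, and the myosin gene Myh15 was at least 3.73-fold lower, since it was not well above background on the null-labelled arrays. In mESC 2 of 7 measured neighbours rose (Morc1, and Phldb2 by 0.78), 2 fell (Tagln3, -0.65, and Nectin3, -0.70) and 3 did not pass. Cd47, an integrin-associated surface protein further along the chromosome, fell by 1.13 ± 0.10 in iPSC and rose by 0.56 in mESC. Ift57 and Dzip3 differed by -0.13 and -0.35 in iPSC and did not pass.

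Dppa5a lies on chromosome 9 between Gsta2, a glutathione transferase gene, and Ooep, a KH-domain relative of the oocyte's maternal complex. In null-labelled iPSC Gsta2 was at least 2.01-fold lower, since it was not well above background on those arrays, while Ooep differed by -0.25 ± 0.16 (limma, adjusted p = 0.315) and Dppa5a by 0.06. Of the 9 genes on each side 14 were measured in iPSC, of which 3 rose, 5 fell and 6 did not pass. The rises were those of the surface protein gene Cd109 at 1.21 ± 0.18, the respiratory chain gene Cox7a2 at 0.50 ± 0.12 and the F-box gene Fbxo9 at 0.46 ± 0.09. Cgas, the sensor of cytosolic DNA, fell by 1.67 ± 0.11, the DEAD-box gene Ddx43 fell by 0.53 ± 0.10, Gm10639 fell by 1.36 ± 0.22 and Gm3776 was at least 1.47-fold lower. In mESC 2 of 12 rose (Ooep, 0.37, and Gsta4, 0.43), 3 fell (Cd109, -1.33, Gm10639, -0.60, and Fbxo9, -0.20) and 7 did not pass. The call of Ooep was kept under 2 of 5 alternative settings. Mto1, Eef1a1 and Slc17a5 did not pass in iPSC, at 0.17, 0.20 and -0.23.

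The DNA methylation factors, among which Dppa3 acts, had more rises than falls in null-labelled iPSC. A rise was seen for 7 of 20 genes and a fall for 0, and 13 did not pass, with a median of 0.30 beside 0.04 for all probes. The largest rises were those of Uhrf2, a paralogue of Uhrf1, at 1.31 ± 0.12, of the de novo methyltransferase Dnmt3b at 1.12 ± 0.12, and of its cofactor Dnmt3l at 1.07 ± 0.11. Uhrf1 itself, the binding partner of Dppa3, differed by 0.10 and did not pass (limma, adjusted p = 0.650). In mESC 4 of the 20 rose, 3 fell and 13 did not pass, with a median of 0.00. Zfp57, a zinc finger protein that keeps imprints, rose by 1.10, the oxidase Tet2 rose by 0.89 and Dnmt3l rose by 0.35. The 3 falls, named after their values were seen, were those of Tet1 at -0.27, Mbd3 at -0.33 and Dnmt3b at -0.34, and the call of Tet1 was lost under 3 of 5 alternative settings.

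Genes of germ cell specification, the setting in which Dppa3 was described, did not move as 1 group. In iPSC 6 of the 22 measured rose, 7 fell and 9 did not pass, with a median of -0.14. Dazl, an RNA-binding protein of germ cells, fell by 4.08 ± 0.15, Asz1, a piRNA pathway protein, was at least 5.59-fold lower and not well above background on the null-labelled arrays, and Piwil2, a PIWI protein, fell by 1.37 ± 0.14. In mESC 3 of the 21 measured rose, 13 fell and 5 did not pass, with a median of -0.39, where 14.7% of all probes rose and 11.4% fell. With 1 probe per gene, as in the list, 3146 of 15885 rose and 2403 fell. The homeobox genes Rhox6 and Rhox9 were among the falls there, at -3.45 ± 0.08 and -3.398 ± 0.154, with Tfap2c, which encodes a factor of the germ cell programme, at -1.40 ± 0.09. In iPSC these 3 genes rose by 1.03, 1.05 and 0.46, and the call of Tfap2c was lost under 1 of 5 alternative settings, at an adjusted p of 0.0566.

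Genes known to need Dppa2 and Dppa4, or to mark the 2-cell-like state, included both rises and falls in null-labelled iPSC. Of 25 genes 17 were measured, of which 7 rose, 3 fell and 7 did not pass. Zscan4c, a zinc finger gene of the 2-cell-stage embryo, rose by 1.85 ± 0.19, and the related Zscan4a rose by 1.77 ± 0.16. Their near-identical copies share sequence, so signal of single Zscan4 genes is uncertain. Pramel7 and Pramel6, leucine-rich repeat proteins of pluripotent cells, fell by 4.72 ± 0.18 and 3.65 ± 0.23, and Dux, an activator of the 2-cell programme, differed by 0.09 and did not pass. In mESC, where the Dppa2 and Dppa4 probes overlapped between groups, 1 of the 15 measured rose (Tmem92, 1.02), 2 fell (Pramel6, by 0.59, and Mael, by 0.42) and 12 did not pass. The Pramel6 call was lost under 1 of 5 alternative settings, at -0.17 (adjusted p = 0.188).

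Of the 12 genes listed for KH-domain relatives of Dppa5a and the maternal complex, 9 were measured in iPSC. Of these 1 rose, 3 fell and 5 did not pass, with a median of -0.25. Padi6, a peptidylarginine deiminase of the oocyte, rose by 1.61, while Khdc3, which lies outside the Dppa5a neighbourhood described above, fell by 2.47 ± 0.13 and the NLR protein gene Nlrp5 fell by 1.11. In mESC 3 rose, 3 fell and 3 did not pass. There Nlrp5 fell by 0.89, Padi6 fell by 0.82 and Nlrp4f rose by 0.66. The counts depended on the processing. In mESC 1 rose and 3 fell with normexp background correction, and 2 rose and 4 fell with quantile normalization. With the deposited series table, or the percentile taken over probes detected on all arrays, 1 rose and 4 fell.

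Genes with the profile most like that of Dppa3 were ranked by Pearson correlation over the 12 arrays after the mean of each cell type was subtracted, among 17901 genes and with no test. The points share arrays and scaling, and the ranking was read from the same 2 differences that it describes. The closest was Nrsn1, a neuronal vesicle protein gene, at r = 0.999, which differed by -2.85 in mESC and 3.02 in iPSC. The transcription factor gene Myb followed at r = 0.997, with -2.07 and 2.16. Efnb2, an ephrin ligand, at r = 0.996, the amino acid transporter gene Slc43a1 at r = 0.994 and Fam222a at r = 0.994 had differences of -1.23, -1.002 and -1.05 in mESC and 1.35, 1.09 and 0.98 in iPSC. None of the 5 reached the size of the Dppa3 differences in either comparison. For Dppa2 the closest were Etl4, Vps41 and Trappc6b, at r between 0.914 and 0.938, for Dppa4 they were Nkiras1, Ell and Zar1l, at 0.890 to 0.899, and for Dppa5a they were Coa8, Hspa8 and Cyp4f18, at 0.946 to 0.969. Those genes differed by at most 0.19 between iPSC groups, except Zar1l at -0.71.

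The mESC and iPSC comparisons have no array in common, and 15720 genes were tested in both. A total of 404 genes were at least 2-fold lower in Tbx3-high mESC and 644 at least 2-fold higher in null-labelled iPSC, and 120 were in both sets, which is 29.7% of the first and 18.6% of the second. These sets are counted among the 15720 genes. Of all probes tested, which include several probes of some genes, 2.15% were that much lower in Tbx3-high mESC and 3.69% that much higher in null-labelled iPSC. At 4-fold they shared 15 genes, among them Dppa3, Nrsn1, Myb, Insm1, Cxcl10 and Gpx6, which is 21.1% of the first set and 14.0% of the second. At 8-fold they held 20 and 34 genes and shared 1, Dppa3, which is 5% of the first and 2.94% of the second. The fold sizes, and the names other than Nrsn1 and Myb, were chosen after the values were seen. Dppa3 itself was chosen by measured values, under a rule that names no cell type.

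**Figure D5:**
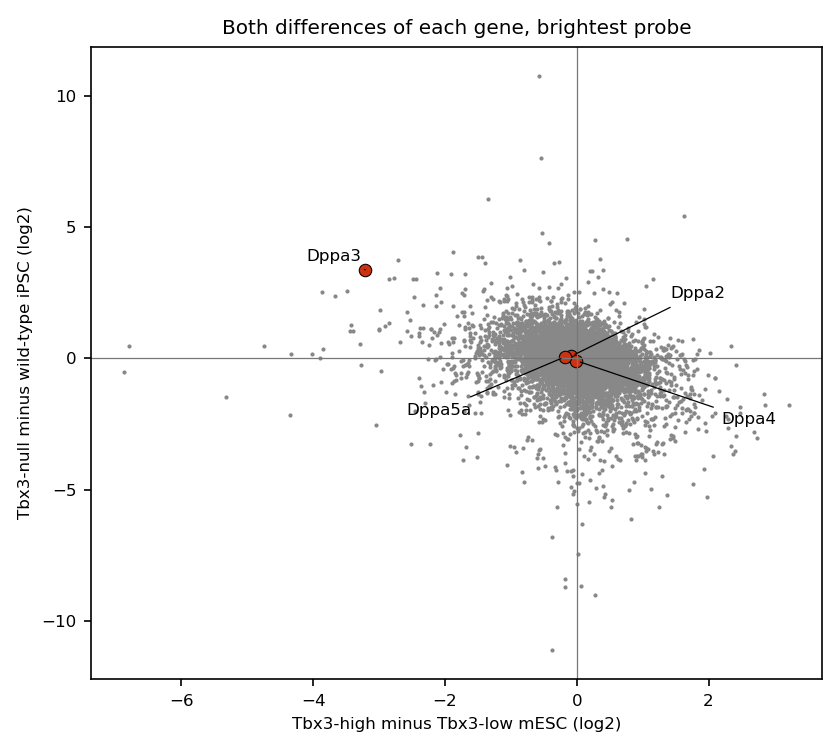
Log2 difference of each gene's brightest probe in Tbx3-high minus Tbx3-low mESC (horizontal axis) and in null-labelled minus wild-type iPSC (vertical axis) for the 15720 genes tested in both (grey dots), with the 4 Dppa genes in red. Dppa3 lies at -3.21 and 3.37, away from the mass of genes, and Dppa2, Dppa4 and Dppa5a lie near 0 on both axes.

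Markers of fibroblasts, which can serve as feeder cells for such cultures, gave a sum that rested mostly on Fn1, a fibronectin gene. The summed signal of 15 of them, in multiples of the 75th percentile, was 85.3 to 89.8 in Tbx3-low and 133 to 171 in Tbx3-high mESC, and 109 to 120 in null-labelled and 133 to 144 in wild-type iPSC. Without Fn1 the sum of the other 14 was 11.7 to 12.8 in Tbx3-low mESC, within the range of the Tbx3-high arrays, of which the highest was at 35.4, and it was higher in null-labelled iPSC, at 36.4 to 42.2, than in wild-type iPSC, at 31.3 to 31.7. In iPSC the direction of the sum turned without this gene. Of the 15, between 9 and 12 were well above background on all arrays of a group, and Col5a2 and Postn were so on no array. Of those measured, 5 of 10 rose and 1 fell in Tbx3-high mESC, and 4 of 13 rose and 4 fell in null-labelled iPSC. Their part in the Dppa3 differences was not tested. The 9 endothelial and blood markers summed to 7.67 to 11.1 over all arrays, and Cdh5 and Hbb-b1 were well above background on none.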

How the data were processed

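Per the labels' protocols, RNA was extracted with RNeasy kits and 50 ng per sample was labelled with Cy3. Per the file headers, spot intensity was extracted with Agilent Feature Extraction 10.7.3.1, which subtracts background and removes spatial trends to give the processed signal, without scaling arrays to each other. The deposited series table holds log2 values of the same arrays, and how they were scaled is not stated in any label or header used here. Its column medians were 6.61 in the mESC and 6.58 to 6.59 in the iPSC, and it served as an alternative only.

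Values were log2 of the processed signal minus the log2 75th percentile of the array over the probes other than controls. Outlier-marked spots counted as missing, and spots of 1 probe were averaged. The fit was made with limma 3.58.1 under R 4.3.3 on all 12 arrays, 1 mean per group, so both comparisons share 1 estimate of the spread. A comparison took in the probes that were well above background throughout 1 or both of its groups, and p-values were adjusted (Benjamini-Hochberg, two-sided, threshold 0.05) over all of them. Under this rule 28.1% of 36713 probes passed in iPSC and 26% of 30693 in mESC. Where a group was dim, the fold is a bound, taken from each array's lowest signal well above background or the probe's own, whichever was higher. Tabulation used pandas 2.3.3 under Python 3.11.15, and matplotlib 3.10.9 drew the plots. The fit was tested on simulated data with independent normal noise and known changes. In each comparison 100 changes of each size were planted among all probes tested. Of simulated log2 changes of 1 it recovered 51% in iPSC and 90% in mESC. Of changes of 2 it recovered 80% and 96%. Among the probes that passed, 8.39% in iPSC and 6.06% in mESC were false, above the nominal 0.05. Far more probes passed in the real data than in the simulation, so these shares do not give the recovery or false share there.

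The members, the lists and the rule for names were chosen with earlier results of these data known. The rule named every member probe, Tbx3, the 3 largest changes that passed in each list, each measured gene of the 3 locus lists, and the genes most like each member (5 for Dppa3, 3 for the others). Other neighbours, from 9 places on each side in RefSeq order, were named after their values were seen. For a gene of a list the probe of highest mean signal was used. Neighbours and names came from RefSeq (GRCm38), which placed 27656 probes by accession, 3401 by symbol and 307 by synonym, while 1788 kept the name in the file.

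Same-numbered arrays of the mESC groups deviated together from their group means (r = 0.154, 0.244, 0.166 and 0.119), so the replicate number was also fitted as a block. For Tbx3-high replicate 1 the closest Tbx3-low array had the same number. For replicates 2, 3 and 4 it was replicate 1, 4 and 3, each in the same slide row. Slide row was also fitted as a block in mESC. In the iPSC the correlation was 0.00311 and the arrays share a number only.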

Additional observations from a re-analysis of the deposited data

Results flagged for a closer look

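On the Tbx3-high mESC arrays the Dppa3 probe A_55_P2091496 read -0.189 on replicate 3, above the other 3 arrays of its group, which lay between -0.49 and -0.45. The gap to the nearest array exceeded Dixon's 95% critical value for 4 samples. It was the only such array among 16 groups of 4 arrays looked at, and chance marks about 1 group in 20.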

How the results depend on the processing

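The rise of Dppa3 in iPSC passed under all 13 alternatives, with adjusted p between 1.78e-11 and 0.000438, and without each array in turn it was 3.30 to 3.44. In mESC its difference kept its sign under 20 alternatives and moved by more than the spread between arrays with normexp background correction (-2.90) and with the deposited series table (-2.97). The Dppa2 probe A_55_P2059730 no longer passed with quantile normalization (0.46, adjusted p = 0.0523), with the percentile over probes detected on all arrays (0.46, adjusted p = 0.0550) or without 3 of the 4 iPSC arrays in turn, where it ranged from 0.52 to 0.61 over the 4. In iPSC the other Dppa2 probe changed sign with quantile normalization (-0.057), the detected percentile (-0.013) and the series table (-0.091), and Dppa5a did so with the same 3 settings (-0.107, -0.043 and -0.147) and without the second null-labelled array (-0.053, in a range of -0.053 to 0.17). None of these sign changes passed the test, and their cause was not tested. With the replicate number as a block, Dppa3 rose by 3.37 (adjusted p = 4.05e-05), 9421 probes passed in iPSC and 8051 in mESC, and the block changed no other call of a member.

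In iPSC 10323 probes passed, 5520 higher and 4803 lower. The percentile over detected probes gave 4121 higher and 5800 lower. Testing 1 probe per gene gave 6753 of 17756, and leaving out each array gave 6844 to 8287, lowest without the first wild-type array. In mESC 7993 probes passed, 4722 within slide row 1 and 4438 within slide row 2, where fewer arrays entered. With normexp the median of all iPSC probes was 0.10, with the detected percentile -0.06 and in the main setting 0.04. The number of arrays, 2 per iPSC group, limits the precision. The list counts were also taken under 5 alternatives chosen after seeing the data, and the naive markers in iPSC then gave 0 rises and 9 falls with quantile normalization or the series table, against 3 and 5.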
